A study of Mus musculus with 16 samples.

Results

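The transcripts followed here are 10 genes of natural killer cells and of cytotoxic granules, Gzma, Gzmb, Prf1, Nkg7, Ncr1, Klrb1c, Klrd1, Klre1, Eomes and Ccl5, out of 20863 genes measured. They were listed by symbol, with no cutoff on their values but with earlier results of these data known. Counts of members set beside shares of all genes therefore describe the set and do not test it. Each member was read from its probe of highest mean level over the 16 arrays. Whole lungs of C57BL/6 mice aged 9 to 12 weeks were profiled on single-colour Agilent arrays. All mice received a locked nucleic acid (LNA), a chemically stabilised antisense oligonucleotide, into the trachea at 5 mg/kg, given 4 and 2 days before and 4 days after bleomycin or its vehicle. Bleomycin, a DNA-damaging drug that causes lung injury and fibrosis, was instilled at 1 unit/kg, and control mice received phosphate-buffered saline (PBS). The groups were bleomycin with LNA-miR-199a-5p, an inhibitor of the microRNA miR-199a-5p (5 arrays), bleomycin with LNA-control (5 arrays), PBS with LNA-miR-199a-5p (3 arrays) and PBS with LNA-control (3 arrays). No group lacked an LNA, so no lung without oligonucleotide served as a baseline. The sex of the mice and the day of lung collection are not given in the sources used here. The labels do not say that each array is a separate animal, so p-values measure the spread between these samples.

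Natural killer cells are innate lymphocytes that kill infected or transformed cells without prior sensitisation. They sense their targets through paired activating and inhibitory receptors, and many of these receptors are encoded together in the natural killer gene complex. On contact they release granules in which perforin opens the target membrane and granzymes, a family of serine proteases, cleave proteins inside the target. Cytotoxic T cells use the same granule machinery, so granzyme, perforin, Nkg7, Eomes and Ccl5 transcripts mark both cell types, whereas Ncr1 is largely restricted to natural killer cells and related innate lymphoid cells. In whole lung RNA, fewer cells of a type and less RNA per cell cannot be told apart.

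The oligonucleotide inhibitor was directed at mmu-miR-199a-5p, whose mature RNA is shown because it is the molecule the inhibitor targets. Its seed, bases 2 to 8, is in capitals. The mouse genome encodes it at chr1:162217844-162217866 on the plus strand (Mir199a-2) and at chr9:21496537-21496559 on the minus strand (Mir199a-1), both in GRCm38.p6.
mmu-miR-199a-5p: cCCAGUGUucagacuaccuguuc
Promoter windows, 250 bases before to 50 bases after a transcription start, are shown for Gzma, Gzmb and Ncr1, 3 of the members that hold the word marked in them. They cover chr13:113100932-113101231 (minus strand), chr14:56262285-56262584 (minus strand) and chr7:4337465-4337764 (plus strand). Capitals mark the letters TGTGGTT, the core word bound by Runx transcription factors, or its reverse complement AACCACA.
Gzma: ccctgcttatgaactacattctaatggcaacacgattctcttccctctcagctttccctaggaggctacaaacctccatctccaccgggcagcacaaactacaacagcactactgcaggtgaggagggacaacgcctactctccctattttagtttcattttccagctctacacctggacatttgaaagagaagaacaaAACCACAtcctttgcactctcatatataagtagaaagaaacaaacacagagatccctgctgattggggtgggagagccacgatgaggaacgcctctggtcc
Gzmb: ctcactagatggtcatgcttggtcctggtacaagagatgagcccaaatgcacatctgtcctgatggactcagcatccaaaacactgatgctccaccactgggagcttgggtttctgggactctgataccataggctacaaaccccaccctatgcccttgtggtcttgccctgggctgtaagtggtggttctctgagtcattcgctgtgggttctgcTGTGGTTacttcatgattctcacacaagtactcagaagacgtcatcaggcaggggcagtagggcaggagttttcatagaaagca
Ncr1: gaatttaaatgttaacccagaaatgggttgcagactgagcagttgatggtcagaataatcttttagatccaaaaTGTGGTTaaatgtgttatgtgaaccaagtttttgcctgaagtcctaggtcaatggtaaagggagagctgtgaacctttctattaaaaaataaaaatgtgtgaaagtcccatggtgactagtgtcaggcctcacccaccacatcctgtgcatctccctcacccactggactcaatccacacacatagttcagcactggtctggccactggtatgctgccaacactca
The word lay at -51 relative to the start in Gzma, at -34 in Gzmb and at -176 in Ncr1. Of the 8 members with a window in the RefSeq table, 4 held it on either strand, the other being Klre1, against 6.09% of the 27025 genes with a window. The T-box word GGTGTGA occurred in 1 of the 8, Nkg7, against 4.6% of genes. The ETS word AGGAAGT also occurred in 1, Prf1, at 2 positions, against 10.7% of genes. The words do not overlap one another. These matches describe letters in the windows, and no binding was measured.

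The lung surfactant gene Sftpc lay between 18.11 and 18.32 on the log2 scale on every array and the alveolar gene Ager between 13.88 and 14.92, so defining lung transcripts were present throughout. Transcripts typical of neighbouring tissues varied between arrays. Rag1, which recombines antigen receptor genes in immature lymphocytes and is abundant in thymus, reached 10.03 and 10.88 in replicates 1 and 4 of bleomycin with LNA-control, and lay between 5.43 and 6.10 on the other 14 arrays. The mean of 9 heart muscle genes lay between 12.16 and 12.89 after bleomycin with LNA-miR-199a-5p and between 11.50 and 12.07 after bleomycin with LNA-control, without overlap. The mean of 9 brown fat genes lay between 11.38 and 11.91 after bleomycin with LNA-miR-199a-5p and between 10.42 and 11.19 after bleomycin with LNA-control, also without overlap. Squamous epithelial genes ran between 12.74 and 13.70 in the first of these groups and between 11.50 and 12.66 in the second. In PBS lungs the same squamous mean ran between 6.28 and 13.05 with LNA-miR-199a-5p and between 9.82 and 11.98 with LNA-control. For the 2 pairwise comparisons that hold bleomycin with LNA-control, counts of called members and list genes are given with and without those 2 arrays. The chromosome 6 span, list counts for the interaction and genes outside the members, other than Cd8a and Cd8b1, are given with all arrays only.

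**Figure D1:**
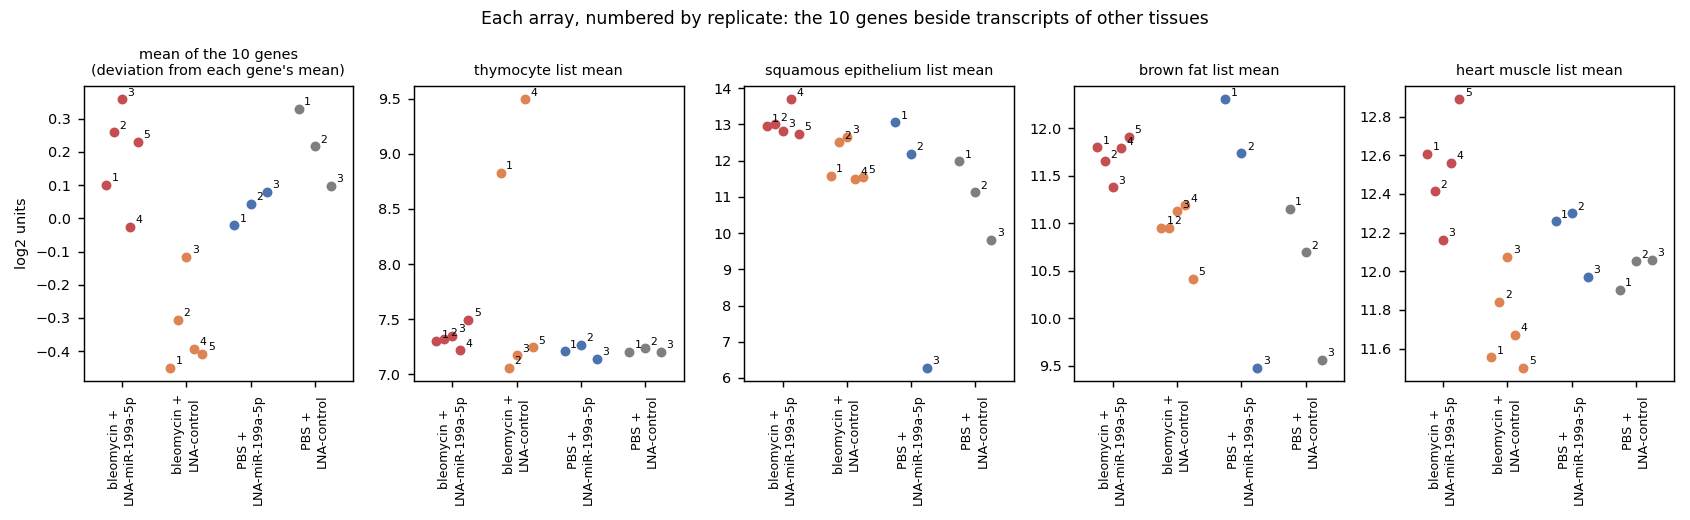
Each panel plots 1 point per array, numbered by replicate, by group, in log2 units: the mean deviation of the 10 genes at the left, then the mean level of each marker list. Replicates 1 and 4 of bleomycin with LNA-control stand apart in thymocyte transcripts, and the heart muscle, brown fat and squamous means of bleomycin with LNA-miR-199a-5p do not overlap those of bleomycin with LNA-control.

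Lungs given bleomycin with LNA-control had the lowest group mean for 10 of the 10 genes. The share of all genes with their lowest mean in that group was not counted, and granule genes outside the 10 were called in both directions. In mice given LNA-control, 8 of the 10 were lower after bleomycin than after PBS and none was higher (limma, Benjamini-Hochberg adjusted p under 0.05 over all genes), where 7.9% of all genes were called lower and 9.6% higher. Klrd1 and Klre1 did not pass. The median difference was -0.53 on the log2 scale over the 10 genes and 0.0035 over all genes. For 9 of the 10, all but Klrd1, no array of one group reached the range of the other, against 11.4% of all genes that were lower without overlap. In bleomycin-treated lungs, 9 of the 10, all but Klrd1, were higher with LNA-miR-199a-5p than with LNA-control, where 13.4% of all genes were called higher and 11.4% lower. The median of that difference was 0.53 over the 10 genes and 0.0146 over all genes, and 7 of the 10 had no overlap, against 7.3% of all genes. Both comparisons use the same 5 arrays of bleomycin with LNA-control, so a low value there lowers the first difference and raises the second.

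**Figure D2:**
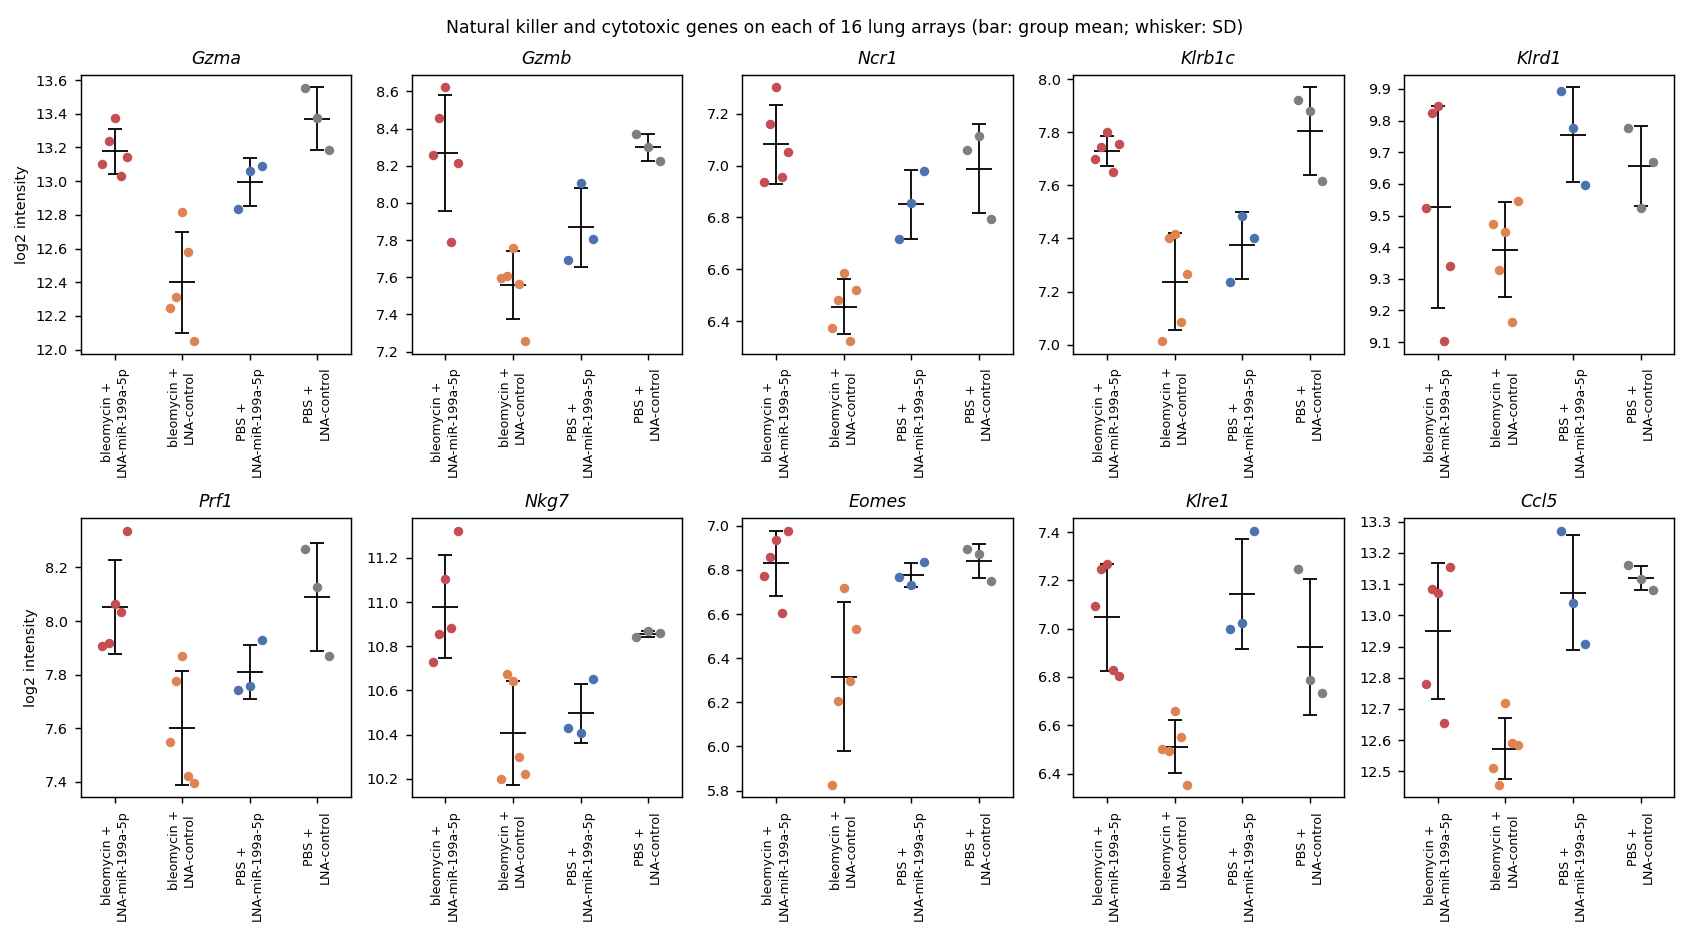
Log2 level of each of the 10 genes on each of the 16 arrays, by group (points: arrays; bars: group mean; whiskers: SD; each panel has its own axis). The 5 arrays of bleomycin with LNA-control lie below all 11 others for Gzma, Ncr1 and Klre1, and the groups overlap for Klrd1.

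Gzma encodes granzyme A, a tryptase-like granule protease, and its gene lies at chr13:113093824-113100981. Its log2 levels were 13.10, 13.24, 13.37, 13.03 and 13.15 after bleomycin with LNA-miR-199a-5p and 12.24, 12.31, 12.82, 12.58 and 12.05 after bleomycin with LNA-control. In PBS lungs they were 12.83, 13.06 and 13.09 after PBS with LNA-miR-199a-5p and 13.56, 13.38 and 13.18 after PBS with LNA-control. The 5 arrays of bleomycin with LNA-control lay below all 11 others, by a margin of 12.82 against 12.83 at the closest. With LNA-control, Gzma was 1.96-fold lower after bleomycin than after PBS (log2 difference -0.97 ± 0.14 SE, adjusted p = 0.000192). Among bleomycin lungs it was 1.71-fold higher with LNA-miR-199a-5p than with LNA-control (0.78 ± 0.12, adjusted p = 0.000383). After LNA-miR-199a-5p, bleomycin and PBS lungs overlapped and differed by 0.18 ± 0.14 (adjusted p = 0.421).

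Gzmb encodes granzyme B, the granule protease that activates caspases in the target cell, at chr14:56258836-56262334. Its log2 levels were 8.26, 8.46, 8.62, 7.79 and 8.22 after bleomycin with LNA-miR-199a-5p and 7.60, 7.61, 7.76, 7.57 and 7.26 after bleomycin with LNA-control. PBS lungs had 7.69, 8.11 and 7.81 after PBS with LNA-miR-199a-5p and 8.37, 8.30 and 8.22 after PBS with LNA-control. The lowest array given bleomycin with LNA-miR-199a-5p, replicate 4 at 7.79, was only just above the highest given bleomycin with LNA-control, at 7.76. Gzmb fell by 0.74 ± 0.15 after bleomycin in mice given LNA-control (adjusted p = 0.0027). It was 1.64-fold higher with LNA-miR-199a-5p than with LNA-control among bleomycin lungs (0.71 ± 0.13, adjusted p = 0.00127). Within the LNA-miR-199a-5p arm, its difference between bleomycin and PBS was 0.40 ± 0.15 (adjusted p = 0.09), and 0.52 (adjusted p = 0.025) when the bleomycin array numbered 4 of that arm was left out.

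Prf1 encodes perforin, the pore-forming protein that lets granzymes into the target, at chr10:61297751-61304684. Prf1 stood at 7.91, 7.92, 8.06, 8.03 and 8.34 after bleomycin with LNA-miR-199a-5p and 7.55, 7.78, 7.87, 7.42 and 7.39 after bleomycin with LNA-control. Its levels in PBS lungs were 7.74, 7.76 and 7.93 after PBS with LNA-miR-199a-5p and 8.27, 8.13 and 7.87 after PBS with LNA-control. Groups separated narrowly: the highest array of bleomycin with LNA-control and the lowest of PBS with LNA-control both read 7.87. Prf1 was lower after bleomycin with LNA-control (-0.49 ± 0.13, adjusted p = 0.0128) and higher with LNA-miR-199a-5p than with LNA-control among bleomycin lungs (0.45 ± 0.11, adjusted p = 0.00736). Without the 2 arrays rich in Rag1 neither passed, at -0.41 (adjusted p = 0.0869) and 0.37 (adjusted p = 0.0763). The first call was also lost when either of the first 2 PBS arrays with LNA-control was left out (-0.40, adjusted p = 0.0824, and -0.47, adjusted p = 0.0549), and under the replicate block (-0.47, adjusted p = 0.0665).

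Nkg7 encodes a membrane protein of cytotoxic granules that is needed for their release, at chr7:43437138-43438246. Nkg7 read 10.73, 10.86, 11.10, 10.88 and 11.32 after bleomycin with LNA-miR-199a-5p and 10.20, 10.68, 10.64, 10.30 and 10.22 after bleomycin with LNA-control. With PBS it read 10.43, 10.41 and 10.65 after PBS with LNA-miR-199a-5p and 10.84, 10.87 and 10.86 after PBS with LNA-control. The 3 arrays of PBS with LNA-control were nearly identical, and every bleomycin array with LNA-miR-199a-5p lay above every bleomycin array with LNA-control. Nkg7 was higher by 0.57 ± 0.12 with LNA-miR-199a-5p than with LNA-control among bleomycin lungs (adjusted p = 0.00243). It was lower after bleomycin than after PBS with LNA-control (-0.45 ± 0.14, adjusted p = 0.0301). That call was lost without the 2 arrays rich in Rag1 (-0.34, adjusted p = 0.176), under the replicate block (adjusted p = 0.0605), and without array 1, 4 or 5 of the bleomycin group with LNA-control (adjusted p = 0.0736, 0.0641 and 0.0731) or array 1, 2 or 3 of its PBS counterpart (adjusted p = 0.0772, 0.0917 and 0.0958). A further Nkg7 probe, with a mean of 9.70, gave larger differences in the same direction, of -0.74 ± 0.13 after bleomycin with LNA-control (adjusted p = 0.000957) and 0.85 ± 0.11 between the LNAs (adjusted p = 9.73e-05).

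Ncr1 encodes NKp46, an activating receptor and the most specific natural killer marker of the set, at chr7:4337715-4345184. Log2 levels of Ncr1 were 6.94, 7.16, 7.30, 6.96 and 7.05 after bleomycin with LNA-miR-199a-5p and 6.37, 6.48, 6.58, 6.32 and 6.52 after bleomycin with LNA-control. The PBS arrays gave 6.71, 6.86 and 6.98 after PBS with LNA-miR-199a-5p and 7.06, 7.11 and 6.79 after PBS with LNA-control. As for Gzma, the 5 arrays of bleomycin with LNA-control lay below all 11 others. Ncr1 was 1.45-fold lower after bleomycin with LNA-control (-0.53 ± 0.10, adjusted p = 0.00155). It was 1.54-fold higher with LNA-miR-199a-5p among bleomycin lungs (0.63 ± 0.09), with the smallest adjusted p of the 10 genes in that comparison (0.000145).

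Klrb1c encodes the receptor recognised by the antibody that conventionally marks natural killer cells in C57BL/6 mice, at chr6:128778485-128788641. Its levels were 7.70, 7.75, 7.80, 7.65 and 7.76 after bleomycin with LNA-miR-199a-5p and 7.01, 7.40, 7.42, 7.09 and 7.26 after bleomycin with LNA-control. Under PBS they were 7.24, 7.48 and 7.40 after PBS with LNA-miR-199a-5p and 7.92, 7.88 and 7.62 after PBS with LNA-control. The 5 arrays of bleomycin with LNA-miR-199a-5p spanned only 7.65 to 7.80 and lay above both the bleomycin arrays with LNA-control and the PBS arrays with LNA-miR-199a-5p. Klrb1c was lower after bleomycin with LNA-control (-0.57 ± 0.10, adjusted p = 0.000944) and higher with LNA-miR-199a-5p than with LNA-control among bleomycin lungs (0.49 ± 0.09, adjusted p = 0.000929). A dimmer Klrb1c probe, with a mean of 5.98, gave -0.25 (adjusted p = 0.396) and 0.28 (adjusted p = 0.188) in these comparisons.

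Klre1 encodes a lectin-like receptor that pairs with the Klri proteins in mice, at chr6:129559365-129585828. Klre1 levels were 7.09, 7.25, 7.27, 6.83 and 6.80 after bleomycin with LNA-miR-199a-5p and 6.50, 6.49, 6.66, 6.55 and 6.35 after bleomycin with LNA-control. In PBS lungs Klre1 gave 7.00, 7.02 and 7.41 after PBS with LNA-miR-199a-5p and 7.25, 6.79 and 6.73 after PBS with LNA-control. All 5 arrays of bleomycin with LNA-control were below the 11 others, but the PBS arrays with LNA-control were spread widely. With LNA-control the difference after bleomycin was -0.41 ± 0.14 and just missed the threshold (adjusted p = 0.0522). It passed when each array was centred on its median (-0.46, adjusted p = 0.0309) and when array 3 of the bleomycin group with LNA-control was left out (-0.45, adjusted p = 0.0437). Among bleomycin lungs Klre1 was higher with LNA-miR-199a-5p (0.54 ± 0.12, adjusted p = 0.00446).

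Klrd1 encodes CD94, the shared partner of the NKG2 receptors, at chr6:129588092-129598775, next to Klre1. Klrd1 lay at 9.52, 9.82, 9.85, 9.10 and 9.34 after bleomycin with LNA-miR-199a-5p and 9.47, 9.33, 9.45, 9.16 and 9.55 after bleomycin with LNA-control. The PBS values were 9.89, 9.78 and 9.59 after PBS with LNA-miR-199a-5p and 9.78, 9.52 and 9.67 after PBS with LNA-control. Klrd1 was the exception: its groups overlapped in every comparison and no test passed. The difference after bleomycin with LNA-control was -0.26 ± 0.15 (95% interval -0.58 to 0.05, adjusted p = 0.258). That between LNA-miR-199a-5p and LNA-control after bleomycin was 0.14 ± 0.13 (95% interval -0.13 to 0.40, adjusted p = 0.471).

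Eomes encodes a T-box transcription factor of mature natural killer and memory CD8 T cells, at chr9:118478186-118486132. Eomes levels were 6.77, 6.86, 6.94, 6.60 and 6.98 after bleomycin with LNA-miR-199a-5p and 5.83, 6.21, 6.72, 6.30 and 6.53 after bleomycin with LNA-control. With PBS, Eomes gave 6.77, 6.73 and 6.84 after PBS with LNA-miR-199a-5p and 6.90, 6.87 and 6.75 after PBS with LNA-control. Replicate 1 of bleomycin with LNA-control was the lowest array and replicate 3 of that group reached into the range of bleomycin with LNA-miR-199a-5p. Eomes was lower after bleomycin with LNA-control (-0.52 ± 0.15, adjusted p = 0.0197) and higher with LNA-miR-199a-5p among bleomycin lungs (0.51 ± 0.13, adjusted p = 0.00789). Neither call remained without the 2 arrays rich in Rag1 (-0.35, adjusted p = 0.0865, and 0.34, adjusted p = 0.059), and the first was lost without array 1 or 2 of the PBS group with LNA-control (adjusted p = 0.0747 and 0.0715). A dimmer Eomes probe, with a mean of 5.51, passed in no comparison.

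Ccl5 encodes a chemokine that effector and memory lymphocytes store and that attracts leukocytes, at chr11:83525778-83530518. Ccl5 stood at 12.78, 13.08, 13.07, 12.66 and 13.16 after bleomycin with LNA-miR-199a-5p and 12.51, 12.46, 12.72, 12.59 and 12.58 after bleomycin with LNA-control. PBS arrays had 13.27, 13.04 and 12.91 after PBS with LNA-miR-199a-5p and 13.16, 13.12 and 13.08 after PBS with LNA-control. Bleomycin arrays with LNA-control lay below all PBS arrays with LNA-control but overlapped those with LNA-miR-199a-5p after bleomycin. Ccl5 was lower after bleomycin with LNA-control (-0.55 ± 0.11, adjusted p = 0.00259) and higher with LNA-miR-199a-5p among bleomycin lungs (0.38 ± 0.10, adjusted p = 0.0103). The second call was lost without the 2 arrays rich in Rag1 (0.36, adjusted p = 0.066).

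Leaving out the 2 arrays rich in Rag1 kept 5 members called lower after bleomycin with LNA-control and 6 called higher with LNA-miR-199a-5p among bleomycin lungs, and the medians were -0.43 and 0.42. Over all 20863 genes, calls in either direction numbered 2258 in the first without those arrays, against 3651 with them, and 2356 in the second, against 5188. Gzma kept its size, at -0.98 ± 0.16 (adjusted p = 0.00162) and 0.78 ± 0.15 (adjusted p = 0.00411). Gzmb gave -0.76 ± 0.18 (adjusted p = 0.0154) and 0.73 ± 0.16 (adjusted p = 0.0115), and Ncr1 -0.46 ± 0.11 (adjusted p = 0.0179) and 0.55 ± 0.10 (adjusted p = 0.00378). Klrb1c remained called in both (adjusted p = 0.0085 and 0.0144), Ccl5 only in the first (adjusted p = 0.0189), and Nkg7 and Klre1 only in the second (adjusted p = 0.0372 and 0.03). Leaving out any single array kept between 5 and 9 members called in the first comparison and 9 in every case in the second. With the squamous, brown fat and heart means as covariates, 5 members were still called lower after bleomycin with LNA-control. With the same covariates no member was called between the LNAs among bleomycin lungs, and 148 of all 20863 genes were, against 5188 without them. The member values in that fit were 0.62 for Gzma (adjusted p = 0.306), 0.76 for Gzmb (adjusted p = 0.266), 0.77 for Ncr1 (adjusted p = 0.0786), and 0.82 for Klre1 (adjusted p = 0.13). They were 0.41 for Klrb1c (adjusted p = 0.377), 0.33 for Eomes (adjusted p = 0.654), 0.29 for Ccl5 (adjusted p = 0.589), 0.23 for Nkg7 (adjusted p = 0.722) and 0.11 for Prf1 (adjusted p = 0.878). Gzmb, Ncr1 and Klre1 were thus larger than without the covariates, and the other 6 smaller. The part of heart, fat and squamous tissue in the difference between the LNAs was not tested beyond this fit, and these list means do not overlap between the bleomycin groups. RNA integrity averaged 9 after bleomycin with LNA-miR-199a-5p and 8.2 after bleomycin with LNA-control. With it as a covariate, 8 members were still called between the LNAs among bleomycin lungs. Over all 20863 genes, 2981 were called in that fit, against 5188 without the covariate.

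In mice given LNA-miR-199a-5p, 2 members were higher after bleomycin than after PBS and none was lower, where 7.31% of all genes were called higher and 6.04% lower. They were Klrb1c (0.36 ± 0.10, adjusted p = 0.0318) and Nkg7 (0.48 ± 0.14, adjusted p = 0.0293), and these were also the members whose arrays did not overlap, against 10.5% of all genes. The other 8 ranged between -0.23 for Klrd1 and 0.40 for Gzmb. Both calls were lost without array 3 or 5 of the bleomycin group or array 1 of the PBS group of that arm, at adjusted p between 0.0524 and 0.133, and under the replicate block (adjusted p = 0.0654 for Klrb1c and 0.0669 for Nkg7). Klrb1c was also lost without PBS array 3 (adjusted p = 0.0754), and Nkg7 without PBS array 2 (adjusted p = 0.0998).

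Among PBS lungs, LNA-miR-199a-5p and LNA-control differed for none of the 10 genes by limma at the adjusted threshold, where 0.0479% of all genes, 10 in number, were called. At an unadjusted p under 0.05, 4 members were lower with LNA-miR-199a-5p, against 3.06% of all genes. These were Gzma (-0.38 ± 0.16), Gzmb (-0.43 ± 0.17), Klrb1c (-0.43 ± 0.11) and Nkg7 (-0.36 ± 0.15), with adjusted p between 0.334 and 0.618, where ± is the SE throughout. Their arrays did not overlap, where 7.89% of all genes were lower without overlap. With 3 arrays in each PBS group, the 95% interval of these differences was wide, reaching from -0.72 to -0.04 for Gzma.

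The effect of bleomycin differed between the LNAs for 6 of the 10 genes, where 3.07% of all genes had a positive interaction past the threshold and 3.94% a negative one. The interaction is the bleomycin difference with LNA-miR-199a-5p minus that with LNA-control. It equals the difference between the LNAs after bleomycin minus that after PBS, so PBS differences that did not pass enter its size. These PBS differences were -0.38 for Gzma, -0.43 for Gzmb, -0.14 for Ncr1, -0.43 for Klrb1c, -0.36 for Nkg7 and -0.28 for Prf1. The interaction was 1.15 ± 0.20 for Gzma (adjusted p = 0.00385), 1.14 ± 0.22 for Gzmb (adjusted p = 0.00592) and 0.76 ± 0.14 for Ncr1 (adjusted p = 0.00582). It was 0.92 ± 0.14 for Klrb1c, the smallest adjusted p of the 10 (0.00169), 0.93 ± 0.19 for Nkg7 (adjusted p = 0.00963) and 0.73 ± 0.18 for Prf1 (adjusted p = 0.0244). The granule genes and the receptors Ncr1 and Klrb1c thus passed, while Eomes (0.57, adjusted p = 0.106), Ccl5 (0.42, adjusted p = 0.12), Klre1 (0.32, adjusted p = 0.366) and Klrd1 (0.04, adjusted p = 0.939) did not. The interaction of Prf1 was lost without the arrays rich in Rag1 (0.65, adjusted p = 0.0939), under the replicate block (0.73, adjusted p = 0.06) and without array 1 or 2 of either PBS group (adjusted p between 0.0593 and 0.0685). Without the arrays rich in Rag1 the other 5 passed, at adjusted p between 0.00583 and 0.0445. Over all genes 525 interactions passed without those arrays, against 1462 with them. With the squamous, brown fat and heart means as covariates none of the 6 interactions passed, and 68 of all genes did, against 1462 without them. The values in that fit were 1.23 for Gzma (adjusted p = 0.147), 1.24 for Gzmb (adjusted p = 0.217), 0.85 for Ncr1 (adjusted p = 0.183), 0.78 for Klrb1c (adjusted p = 0.26), 0.63 for Nkg7 (adjusted p = 0.58) and 0.57 for Prf1 (adjusted p = 0.623).

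**Figure D3:**
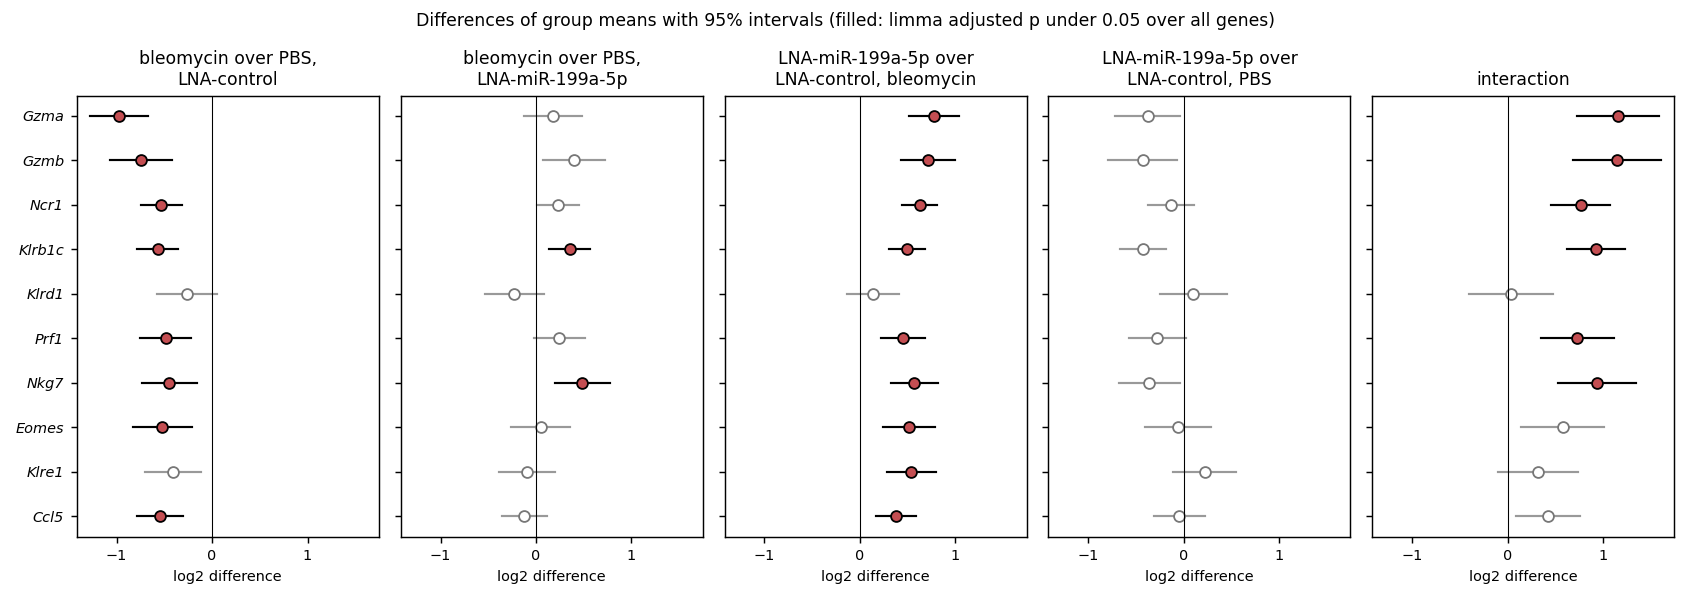
Differences of group means (log2) with 95% intervals for the 10 genes in the comparisons of the design. Filled points passed the limma adjusted threshold over all genes: 8 lie left of 0 for bleomycin over PBS with LNA-control and 9 right of 0 for LNA-miR-199a-5p over LNA-control after bleomycin.

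Ranking the group means placed PBS with LNA-control highest for 6 members, bleomycin with LNA-miR-199a-5p for 2 (Ncr1 and Nkg7) and PBS with LNA-miR-199a-5p for the other two (Klrd1 and Klre1). The lowest group was apart from the next, with no shared range, for Gzma, Ncr1, Klre1 and Eomes, and overlapped it for the other 6. The upper neighbours in the order overlapped for every member except Klrb1c and Nkg7, whose PBS arrays with LNA-miR-199a-5p lay wholly below the group next in order. All 5 bleomycin arrays with LNA-control were below the 11 others for 3 members, against 2.42% of all genes.

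Receptor genes of natural killer cells beyond the 10 were followed in a list of 26 measured genes. Where a gene is given with a pair of differences here and below, the first is for bleomycin over PBS with LNA-control and the second for LNA-miR-199a-5p over LNA-control after bleomycin. After bleomycin with LNA-control, 9 were lower and 2 higher, with a median of -0.24. With LNA-miR-199a-5p against LNA-control among bleomycin lungs, 7 were higher and 1 lower, with a median of 0.07, and 8 had a positive interaction. Without the 2 arrays rich in Rag1 the counts were 8 lower and 1 higher, and 3 higher and 1 lower. Klra8 (-0.68 ± 0.13, adjusted p = 0.00189, and 0.60 ± 0.12, adjusted p = 0.00171) was among those called in both comparisons, as was Klri2, the partner of Klre1 (-0.50 ± 0.11, adjusted p = 0.00409, and 0.47 ± 0.10, adjusted p = 0.00222). Klra9 was lower after bleomycin with LNA-control (-0.65 ± 0.11, adjusted p = 0.000426) and did not pass between the LNAs (0.23, adjusted p = 0.0831). Klra genes encode related Ly49 receptors, so their probes may detect one another. Il2rb, a subunit of the receptors for interleukins that sustain natural killer cells, was higher with LNA-miR-199a-5p among bleomycin lungs (0.73 ± 0.13, adjusted p = 0.00115) and measured -0.39 (adjusted p = 0.0943) after bleomycin with LNA-control. Cd226, an activating adhesion receptor that T cells and platelets also carry, was lower after bleomycin with either LNA, at -1.07 with LNA-miR-199a-5p (adjusted p = 0.000893) and -1.17 with LNA-control (adjusted p = 5.11e-06). Slamf7, found on several leukocyte types, ran the other way, at 0.81 after bleomycin with LNA-control (adjusted p = 3.21e-05) and -0.31 between the LNAs (adjusted p = 0.0148).

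Granule genes were called in both directions. Of 20 measured, 5 were higher and 3 lower after bleomycin with LNA-control (median 0.006), and 6 were higher and 4 lower with LNA-miR-199a-5p among bleomycin lungs (median 0.03). Without the arrays rich in Rag1 they were 4 higher and 2 lower, and 2 higher and 3 lower. Cst7, a cystatin that restrains granule cathepsins, was higher with LNA-miR-199a-5p (0.61 ± 0.11, adjusted p = 0.000901) and measured -0.26 (adjusted p = 0.188) after bleomycin with LNA-control. Tnfsf10, the death ligand TRAIL, was lower after bleomycin with either LNA (-0.59 with LNA-miR-199a-5p, adjusted p = 0.00247, and -0.57 with LNA-control, adjusted p = 0.000147). Ctsc, the protease that activates granzymes and is abundant in myeloid cells, had the opposite pattern to Gzma, at 0.64 ± 0.16 (adjusted p = 0.01) and -0.97 ± 0.14 (adjusted p = 0.000157). Gzme (0.73, adjusted p = 0.000179, and -0.62, adjusted p = 0.000227) and the granzyme inhibitor Serpinb9 (0.58, adjusted p = 0.000443, and -0.32, adjusted p = 0.00908) did likewise, with Gzme at a low group mean of 5.36 after bleomycin with LNA-miR-199a-5p and 5.99 after bleomycin with LNA-control.

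Signalling adaptors of natural killer receptors are also used by myeloid cells. Of 15 measured, 5 were higher and none lower after bleomycin with LNA-control, and 5 were lower and none higher with LNA-miR-199a-5p among bleomycin lungs, with medians of 0.24 and -0.0076. They included the Fc receptor Fcgr3 (1.36 and -0.96, adjusted p = 7.62e-07 and 7.78e-06) and the adaptor Tyrobp (0.66 and -0.47, adjusted p = 7.1e-06 and 5.72e-05). Of 12 transcription factors, 2 were higher and 2 lower after bleomycin with LNA-control, and 1 was higher and 2 lower between the LNAs. Without the arrays rich in Rag1, 4 adaptors were higher and 1 lower after bleomycin with LNA-control and 3 lower between the LNAs, and 1 factor was called in each direction in both comparisons. Tbx21, the T-box partner of Eomes, was the one higher with LNA-miR-199a-5p (0.45 ± 0.10, adjusted p = 0.00401), and it measured -0.30 after bleomycin with LNA-control (adjusted p = 0.0862). Gata3, shared with T cells, was lower after bleomycin with LNA-control (-0.97, adjusted p = 1.21e-05).

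Cytokines that drive natural killer cells showed few calls. Of 17 genes of these cytokines, receptors and their signalling, 1 was higher after bleomycin with LNA-control, namely Il12b, a subunit of interleukin 12 (1.00 ± 0.19, adjusted p = 0.0012). Between the LNAs after bleomycin 1 was higher and 2 lower, Il12b among the lower (-0.80 ± 0.16, adjusted p = 0.0021). Of 9 cytokines that natural killer cells secrete, 3 were higher with LNA-miR-199a-5p among bleomycin lungs. They were Ifng, the interferon that activates macrophages (0.63 ± 0.16, adjusted p = 0.00896), Csf2, a growth factor of myeloid cells (0.44 ± 0.10, adjusted p = 0.00371), and Ltb, which shapes lymphoid tissue (0.55 ± 0.16, adjusted p = 0.018). None of these 3 passed after bleomycin with LNA-control, where Ifng measured -0.26 (adjusted p = 0.402). Without the arrays rich in Rag1, 1 of the 9 was higher between the LNAs, and of the 17 driving genes 1 was higher after bleomycin with LNA-control and 1 was called in each direction between the LNAs.

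Chemokine and trafficking genes were called in both directions, with 6 higher and 4 lower of 19 after bleomycin with LNA-control and 2 higher and 4 lower between the LNAs. Ccl12, a monocyte attractant in mice, was higher in the first (2.35 ± 0.23, adjusted p = 4.21e-06) and lower in the second (-1.25 ± 0.20, adjusted p = 0.00037). S1pr5, the sphingolipid receptor that lets natural killer cells leave lymphoid tissue, was named after its values were seen and had the same signs as Gzma, at -0.57 ± 0.14 (adjusted p = 0.00706) and 0.73 ± 0.12 (adjusted p = 0.000376). Among 15 ligands of natural killer receptors, 4 were higher and 1 lower after bleomycin with LNA-control, and 6 were lower and none higher between the LNAs. Raet1e, a stress ligand of the activating receptor NKG2D, was higher in the first (0.60 ± 0.10, adjusted p = 0.000738) and lower in the second (-0.57 ± 0.09, adjusted p = 0.000334). Without the arrays rich in Rag1, the chemokine genes gave 5 higher and 2 lower, and 2 higher and 4 lower, and the ligands 3 higher and 1 lower, and 2 lower.

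**Figure D4:**
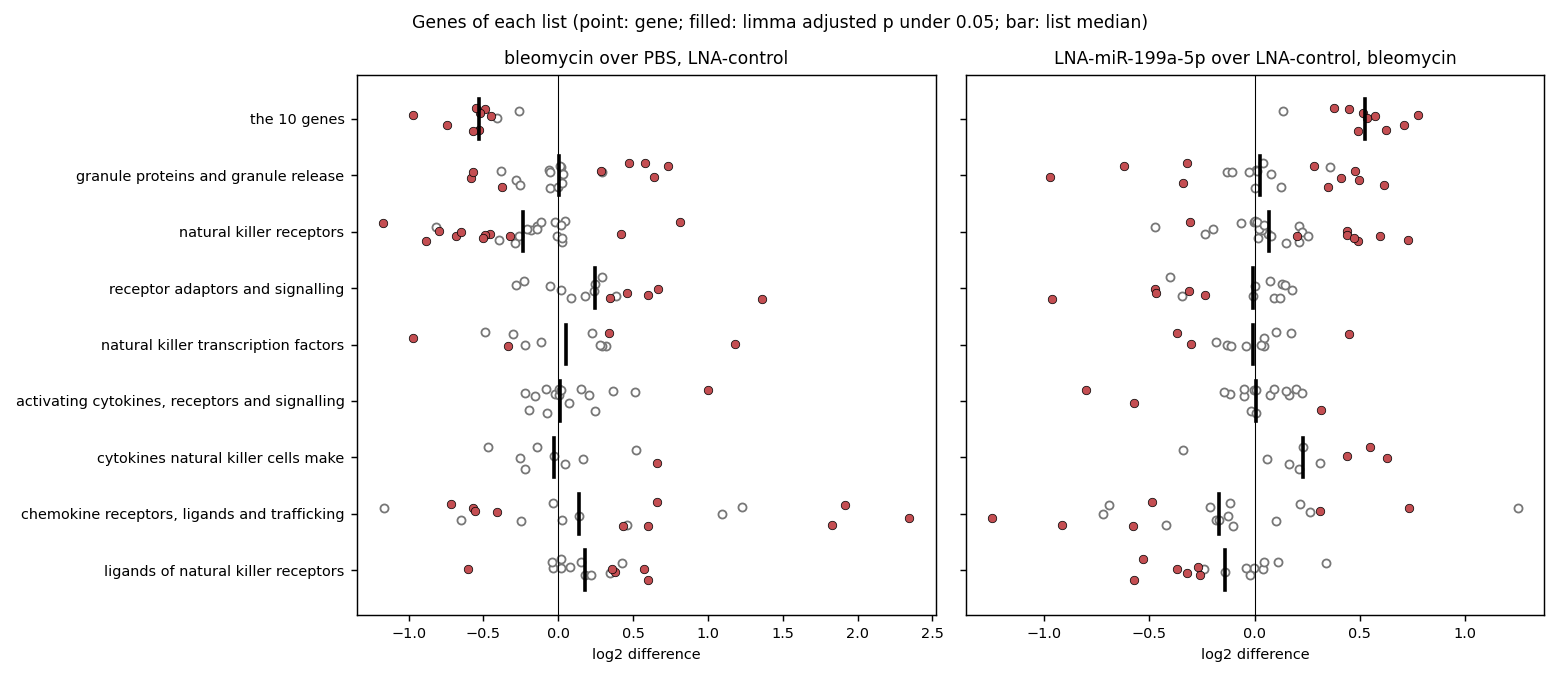
Log2 differences of the genes of the natural killer lists for bleomycin over PBS with LNA-control and for LNA-miR-199a-5p over LNA-control after bleomycin, one point per gene, filled where the limma adjusted threshold was passed. Bars mark list medians. Called receptors lie mostly left of 0 in the first, with 9 lower and 2 higher, while called adaptors lie right of 0, with 5 higher and none lower.

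Markers of other cells that share these transcripts were counted beside them. Of 12 T cell genes, 1 was higher, the co-stimulatory receptor Icos (0.58 ± 0.18, adjusted p = 0.0385), and none lower after bleomycin with LNA-control. None passed between the LNAs by limma, adjusted or at an unadjusted p under 0.05. Cd8a measured 0.50 ± 0.46 (adjusted p = 0.536) and -0.26 ± 0.40 (adjusted p = 0.678). The T cell mean lay between 8.51 and 8.89 after bleomycin with LNA-miR-199a-5p, between 8.39 and 9.75 after bleomycin with LNA-control, between 8.28 and 8.65 after PBS with LNA-miR-199a-5p and between 8.50 and 8.57 after PBS with LNA-control. Its highest values, 9.23 and 9.75, were on the arrays rich in Rag1. Without those arrays, none of the 12 passed after bleomycin with LNA-control, where Cd8a measured -0.37 ± 0.16 (adjusted p = 0.182), and 2 were higher with LNA-miR-199a-5p among bleomycin lungs. These were the subunits of the CD8 co-receptor of cytotoxic T cells, Cd8a (0.61 ± 0.14, adjusted p = 0.0156) and Cd8b1 (0.57 ± 0.12, adjusted p = 0.00816). The shares of natural killer and T cells in the granule transcripts were not measured. None of the 5 pan-leukocyte genes was called after bleomycin with LNA-control, though 2 were higher at an unadjusted p under 0.05, and 1 was lower between the LNAs. The median of the 5 was 0.11 after bleomycin with LNA-control and -0.21 between the LNAs after bleomycin. Ptprc, the pan-leukocyte phosphatase CD45, lay between 10.69 and 11.04 after bleomycin with LNA-miR-199a-5p and between 10.73 and 10.96 after bleomycin with LNA-control, so these ranges overlapped. In PBS lungs Ptprc lay between 10.33 and 10.43 with LNA-miR-199a-5p and between 10.78 and 10.94 with LNA-control, without overlap.

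Called neutrophil and B cell genes had the signs of the 10 genes, and called macrophage genes the opposite signs. Of 8 neutrophil genes, 6 were lower after bleomycin with LNA-control and 5 were higher with LNA-miR-199a-5p among bleomycin lungs, including S100a9 (-1.14 ± 0.11, adjusted p = 2.71e-06, and 1.10 ± 0.09, adjusted p = 9.66e-07). The neutrophil mean lay between 11.40 and 11.61 after bleomycin with LNA-miR-199a-5p and between 10.87 and 10.96 after bleomycin with LNA-control. Of 7 B cell genes, 3 were lower after bleomycin with LNA-control and 4 higher between the LNAs, including Cd79b (-0.79 ± 0.18, adjusted p = 0.00467, and 0.96 ± 0.15, adjusted p = 0.000385). All 7 monocyte and macrophage genes were higher after bleomycin with LNA-control and all 7 lower between the LNAs. Trem2, a receptor of tissue macrophages, measured 3.47 ± 0.10 (adjusted p = 4.08e-12) and -2.31 ± 0.09 (adjusted p = 2.64e-10). Of 8 genes of other innate lymphoid cells, 4 were higher after bleomycin with LNA-control, and 1 was higher and 1 lower between the LNAs. Of 7 mast cell genes, 1 was lower in the first comparison and 5 were higher in the second. Of 9 heart muscle genes, 5 were lower in the first and 8 higher in the second, with medians of -0.40 and 0.73. Of 9 brown fat genes, none was called in the first and 2 were higher in the second, with medians of 0.61 and 0.90. None of the squamous genes (medians 1.02 and 1.09) or the thymocyte genes (0.61 and -0.55) was called in either. Without the arrays rich in Rag1 the neutrophil and macrophage counts were the same, B cell genes gave 1 lower in the first and 3 higher in the second, and mast cell genes none and 4 higher. Other innate lymphoid genes gave 1 higher in the first and 1 lower in the second, and pan-leukocyte genes none and 1 lower. Heart muscle genes gave 2 lower and 5 higher, brown fat genes none and 1 higher, and squamous and thymocyte genes none in either. At an unadjusted p under 0.05, which 28.8% of all genes passed in the first and 36.6% in the second, 1 of the 8 squamous genes was higher in each comparison, and of the 9 brown fat genes 1 was lower in the first and 4 higher in the second. At that level, of the 10 thymocyte genes 2 were higher in the first and 2 higher and 2 lower in the second. The part of any of these cell types in the result was not tested.

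The 10 genes did not all vary together. Over the 16 arrays, which share lung, group and scaling, Gzma and Ncr1 followed the mean of the 10 members most closely (Pearson r = 0.95 for each, where the mean includes the gene itself) and Klrd1 least (r = 0.51). Of genes outside the set, the highest correlations with that mean were those of Klra22 (r = 0.96), Ifitm6 (r = 0.95), Klra8 (r = 0.94), Chst1 (r = 0.94) and Trem3 (r = 0.94), followed by Arhgef3, Krt79, Septin4, Rnase2a and Sft2d2 (r between 0.92 and 0.93). Klra22 and Klra8 encode Ly49 receptors, and Trem3 encodes a receptor of myeloid cells. Probes of Ly49 genes may detect one another, so the transcript read by the Klra22 probe is not certain. These are descriptions over arrays that fall into 4 groups. Within groups, as deviations from group means, r was 0.89 for Klra22 and 0.76 for Klra8.

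Klrb1c, Klre1 and Klrd1 lie within 820.3 kb of the natural killer gene complex on chromosome 6, a span that holds 21 measured genes and was chosen after values were seen. Of its 18 genes outside the set, 7 were lower and 4 higher after bleomycin with LNA-control, and 6 were higher and 3 lower with LNA-miR-199a-5p among bleomycin lungs. Clec12b, an inhibitory lectin receptor, measured -0.87 ± 0.11 (adjusted p = 4.24e-05) and 0.78 ± 0.09 (adjusted p = 3.9e-05). Cd69, an early activation marker of lymphocytes, measured -0.64 ± 0.12 (adjusted p = 0.0012) and 0.41 ± 0.10 (adjusted p = 0.0086). Clec1b, a receptor of platelets, measured -1.30 ± 0.12 (adjusted p = 2.72e-06) and 0.47 ± 0.11 (adjusted p = 0.00433). In the same span Clec7a, the myeloid receptor for fungal glucans, had the opposite signs, at 1.35 ± 0.11 (adjusted p = 4.53e-07) and -1.06 ± 0.09 (adjusted p = 1.31e-06), as had Olr1, a receptor for oxidised lipoprotein (1.19 ± 0.16, adjusted p = 8.64e-05, and -1.15 ± 0.14, adjusted p = 4.2e-05). Genes of the span were thus called in both directions.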

How the data were processed

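Whole lung RNA (0.2 ug) was labelled with Cy3 and hybridised to 16 single-colour Agilent arrays, per the labels' protocols. The deposited series table holds log2 expression values for 62976 spots, between 4.61 and 18.3. The sorted values of the 16 arrays differ by at most 0.0974, so the arrays share nearly one distribution, and differences are relative to it. The submitters' processing notes name limma. Background flags were not used here, so detection above background is not known for dim probes. Of the probes, 31465 have 1 gene symbol and 31511 have none. Symbols were updated through RefSeq accessions for 29036 probes, and 2933 changed.

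One model of 4 group means was fitted over all 16 arrays with limma 3.58.1 in R 4.3.3, with Benjamini-Hochberg adjustment over 20863 genes and a threshold of 0.05. It was tested on simulated data. The members and the gene lists were chosen with earlier results of these data known. Genes outside the members were named by rule: up to 3 per list with the smallest p in each of the 2 main comparisons, and the 10 most like the member mean. S1pr5, Cd8a, Cd8b1 and the genes of the chromosome 6 span were named after their values were seen. Ptprc and the lung genes Sftpc and Ager were also named outside the rule. Levels of different genes come from different probes and were not compared. The closest arrays of a group still differed by a median of 0.0942, so none held a copy of another's values. This cannot tell whether arrays of a group came from the same animal. Same-numbered arrays of the PBS groups deviated together (r between 0.108 and 0.497 in 3 pairs), which pairs those groups by a rule of every pair above 0.1. Differently numbered PBS arrays gave r between -0.452 and 0.287, which overlaps that range. The arrays of the pair at 0.497, both numbered 3, had brown fat means of 9.48 and 9.56, the lowest of the 16. Within the LNA-miR-199a-5p arm, 2 of 3 same-numbered pairs of bleomycin and PBS arrays were above 0.1. Same-numbered arrays of the bleomycin groups did not deviate together (r between -0.373 and 0.0271 in 5 pairs). The replicate number as a block was therefore an alternative. Sequences are from RefSeq tables on GRCm38.p6: the microRNA matched a mature microRNA entry, and 8 of 10 members matched a promoter entry. Klrd1 and Ccl5 are named only. No genome sequence beyond these entries and no protein sequence was used here, and the level of the microRNA was not analysed here.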

Additional observations from a re-analysis of the deposited data

Results flagged for a closer look

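The effect of bleomycin differed between the arms given LNA-miR-199a-5p and LNA-control by a test of the interaction for 6 genes: Gzma (1.15 on the log2 scale), Gzmb (1.14), Nkg7 (0.93), Klrb1c (0.92), Ncr1 (0.76) and Prf1 (0.73). Each is the bleomycin difference with LNA-miR-199a-5p minus that with LNA-control, and the adjusted p ranged between 0.00169 and 0.0244. None of the 6 passed in limma with the squamous, brown fat and heart means as covariates (adjusted p between 0.147 and 0.623). Prf1 was also lost without the arrays rich in Rag1 (adjusted p = 0.0939) and under the replicate block (adjusted p = 0.06). Within the groups of 5 arrays, 20 sets of member values were examined for an array far from the others, and none passed the 95% critical value of 0.710.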

How the results depend on the processing

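With 3 arrays in each PBS group, small differences there could not be resolved, and the brightness of the background was not known for dim probes such as Ncr1 and Eomes. Of 1490 values of single members under the alternatives, 1406 stayed on their side of the threshold, 68 lost a call, 16 gained one and 0 reversed. The 1406 include values never called, and some of these changed sign. Ccl5 between the LNAs after PBS, for example, ranged from -0.147 to 0.0354. Leaving out each array in turn gave 5 to 9 members called for bleomycin over PBS with LNA-control (8 with all arrays), 0 to 3 for bleomycin over PBS with LNA-miR-199a-5p (2 with all), 9 to 9 for LNA-miR-199a-5p over LNA-control after bleomycin, 0 to 0 for that comparison after PBS, and 5 to 7 for the interaction (6 with all). Calls over all genes in these fits ran, in the same order, from 2293 to 3984, from 1186 to 3534 and from 3785 to 5640. They ran from 2 to 121 after PBS and from 632 to 2215 for the interaction. For bleomycin over PBS with LNA-control the member count was 5 without the arrays rich in thymus transcripts, 5 with the thymocyte mean as a covariate and 5 with the squamous, brown fat and heart means as covariates. Over all genes these fits called 2258, 2633 and 2177 genes, against 3651. For bleomycin over PBS with LNA-miR-199a-5p the member count was 1 with the mean of all probes, and 0 with only the arrays compared, with the replicate block, with the RNA integrity covariate, with the tissue covariates, and without the 2 PBS arrays lowest in brown fat transcripts, an alternative chosen after seeing the data. Over all genes, calls in that comparison numbered 2775, 271, 663, 1162, 75 and 791 in those fits in turn, against 2786. With the tissue covariates the member count was 0 for LNA-miR-199a-5p over LNA-control after bleomycin and 0 for the interaction, where the 6 interactions lay between 0.57 and 1.24 on the log2 scale. Array weights gave 1 member, Klrb1c, between the LNAs after PBS, where 394 of all genes were called with the weights, against 10 without them. The replicate block gave 6, 0, 9, 0 and 5 members called in the order above and so changed 5 calls, all named or counted here. Over all genes the block gave 2429 calls against 3651 for bleomycin over PBS with LNA-control, 663 against 2786 with LNA-miR-199a-5p, 3 against 10 between the LNAs after PBS and 947 against 1462 for the interaction. The tissue covariates gave 2177, 75, 148, 4 and 68 calls over all genes. The causes were not tested.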
